A study of Mus musculus with 2 samples.

Results

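The regions described here are the H2BK120ub peaks that lay at the ends of chromosomes, with a midpoint within 2 Mb of either end of an autosome other than chromosome 19. They numbered 4146 of 101866 peaks in the WT list and 4686 of 127444 peaks in the UBR7-KO list. The rule used position alone and no measured value of a peak. Of the 42 ends of these 21 autosomes, 37 carried peaks in the outer 2 Mb. The remaining 5 were the short arms of chromosomes 13, 14, 15, 21 and 22, which are largely unassembled in hg19, and they held 0 peaks of either list there.

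The data came from ChIP-seq for H2BK120ub in liver primary cells, described in the labels as conditionally immortalized mouse cells. One group, WT, carried wild-type UBR7, and the other, UBR7-KO, came from Alb-Cre;UBR7fl/fl mice, in which Cre recombinase driven by the albumin promoter acts on the floxed E3 ligase gene UBR7 in hepatocytes. Each group had 1 library, so no test between the groups was possible, no p-value is given, and no value has a replicate error. The positions are on human hg19, whereas the labels give the organism as mouse, so the chromosome ends are those of the human assembly, and these stretches need not lie at chromosome ends in a mouse cell. Peak lists cannot show whether UBR7 was lost or whether the cells were hepatocytes.

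H2BK120ub is histone H2B with a single ubiquitin attached to a lysine near its C-terminus. The RNF20-RNF40 ligase places it co-transcriptionally, and it typically lies over the bodies of transcribed genes, where it helps to open chromatin and is linked to methylation of histone H3. UBR7, which holds a PHD finger, has been described as another ligase for this residue. The sequence next to human telomeres is often rich in genes and in G and C bases, whereas the outermost stretches hold duplicated sequence and unsequenced gaps. Genes, base composition and gaps under the peaks were not analysed here, since only mouse gene models were available and none were used.

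First, the share of sequence covered by peaks was compared between the outer 2 Mb and the next 2 to 10 Mb of the same ends. In the WT library, peaks covered 33.7 Mb of the 74.0 Mb of outer sequence, or 45.5%, against 25.8% in the next 2 to 10 Mb and 9.20% beyond 10 Mb. In the UBR7-KO library, they covered 25.96 Mb, or 35.1%, against 20.4% and 8.74%. The outer 2 Mb was thus covered 1.76 times as densely as the next 2 to 10 Mb in WT and 1.72 times in UBR7-KO. Both libraries showed the same order of the 3 zones. The sequence beyond 10 Mb includes stretches without a peak in either list, as on the short arms of chromosomes 13, 14 and 15, which lowers its shares. The outer 2 Mb made up 2.62% of the length of these autosomes, yet it held 10.2% of the covered length and 4.29% of the peaks in WT, and 8.77% and 3.87% in UBR7-KO. The higher coverage came with longer peaks more than with more peaks. WT peaks numbered 56.0 per Mb in the outer 2 Mb and 49.3 in the next 2 to 10 Mb, and UBR7-KO peaks 63.3 and 56.3. At 2 to 4 Mb alone there were 59.3 per Mb in WT and 62.2 in UBR7-KO. In WT the adjacent stretch thus held more peaks per Mb than the outer 2 Mb.

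The coverage did not simply rise toward the end. In the outermost 0.25 Mb, only 18.97% of the sequence was covered in WT and 13.4% in UBR7-KO, and 1 of 37 ends held no covered base there in either list. The part of duplicated sequence and gaps in this dip was not tested. Coverage was highest between 1.25 and 1.5 Mb in WT, at 52.6%, and between 1.5 and 1.75 Mb in UBR7-KO, at 41.6%. It then declined inward in both libraries, from 38.9% and 29.6% at 2 to 4 Mb to 18.7% and 15.1% at 8 to 10 Mb, which was still above the means of 11.7% and 10.5% over the 21 autosomes. Those means also count sequence without peaks, such as most of the short arms left out of the 37 ends. Against the next 2 to 4 Mb alone, the outer 2 Mb was covered 1.17 times as densely in WT and 1.18 times in UBR7-KO.

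**Figure D1:**
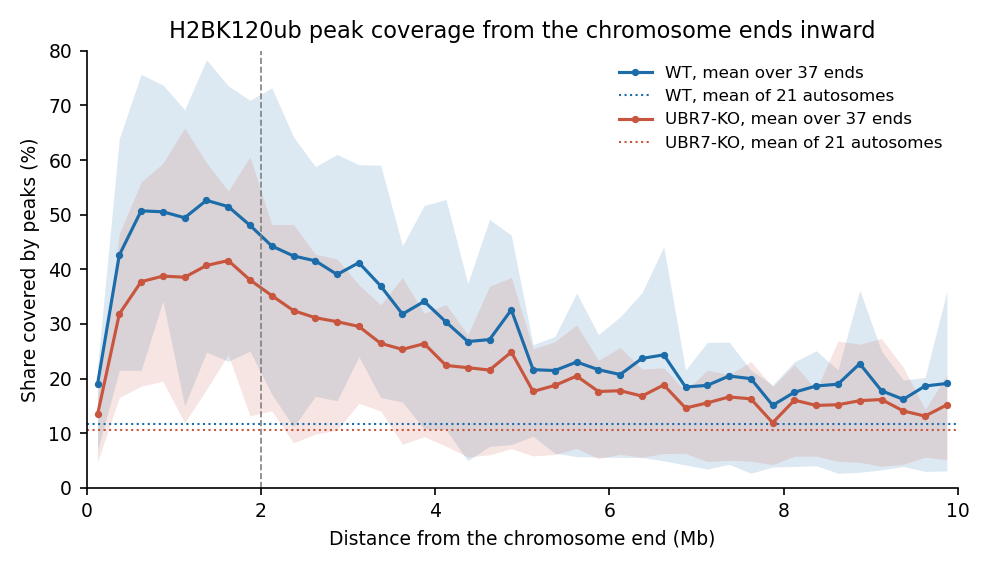
Share of sequence covered by peaks (y axis, %) against the distance from the chromosome end (x axis, Mb, steps of 0.25 Mb). Lines are means and shaded bands the quartiles over 37 ends, dotted lines are the means of the 21 autosomes, and the dashed line marks 2 Mb. Both libraries are low in the outermost step, at 18.97% in WT and 13.4% in UBR7-KO, peak between 1.25 and 1.75 Mb, and decline inward.

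The ends differed widely among themselves. The covered share of the outer 2 Mb ranged from 1.90% on 3p to 85.4% on 17q in WT, with a median of 47.7%, and from 2.63% on 3p to 70.3% on 16p in UBR7-KO, with a median of 32.3%. Nevertheless, the ends kept nearly the same order in the 2 libraries, with a Spearman's rho of 0.969 across 37 ends. This correlation is a description, since both lists share the same sequence and its mappability. At least 50% of the outer 2 Mb was covered at 17 ends in WT and 9 ends in UBR7-KO. Among all 1396 windows of 2 Mb on these autosomes, 3.01% and 1.07% reached that share. These windows include some without a peak in either list, as on the short arms of chromosomes 13, 14 and 15, which lowers both shares. In the next 2 to 10 Mb, 50% was reached at 4 ends in WT and 0 ends in UBR7-KO.

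The outer 2 Mb was covered more than the next 2 to 10 Mb at 33 of 37 ends in WT and at 32 in UBR7-KO. Against the next 2 to 4 Mb alone, this held at only 23 of 37 ends in each library. The same 5 ends, 5p, 7p, 11p, 16p and 20q, had the largest differences to the next 2 to 10 Mb in both libraries. On 11p, coverage fell from 71.8% in the outer 2 Mb to 20.2% in the next 2 to 10 Mb in WT, a difference of 51.6 percentage points, and from 55.5% to 18.7% in UBR7-KO, a difference of 36.8 points. On 7p, the difference was 51.5 points in WT (78.9% against 27.4%) and 42.6 points in UBR7-KO (65.1% against 22.6%). These 2 ends led the order in WT, whereas 5p and 16p led it in UBR7-KO.

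On 5p, the outer 2 Mb was covered at 65.5% and the next 2 to 10 Mb at 17.5% in WT, against 56.2% and 12.95% in UBR7-KO. On 16p, the values were 71.7% and 28.5% in WT and 70.3% and 27.4% in UBR7-KO, so the libraries hardly differed at this end. On 20q, they were 78.0% and 31.6% in WT and 65.4% and 26.6% in UBR7-KO. All 5 ends were thus dense in the outer 2 Mb and only moderately covered further in.

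A few ends went the other way. On 3p, peaks took up 1.90% of the outer 2 Mb in WT and 2.63% in UBR7-KO, below the 6.80% and 6.12% of the next 2 to 10 Mb. The same was seen on 4q, with 6.27% against 7.80% in WT and 5.10% against 7.94% in UBR7-KO, and on 18p, with 4.81% against 8.67% in WT and 7.69% against 8.07% in UBR7-KO. The largest negative difference in WT was on 1p, at -6.50 points, where the next 2 to 10 Mb was itself covered at 53.2%. In UBR7-KO it was on 1q, at -4.64 points. Sparse coverage was therefore found at ends of 1q, 3p, 4q, 9p and 18p, each at or under 10.2% in both libraries.

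**Figure D2:**
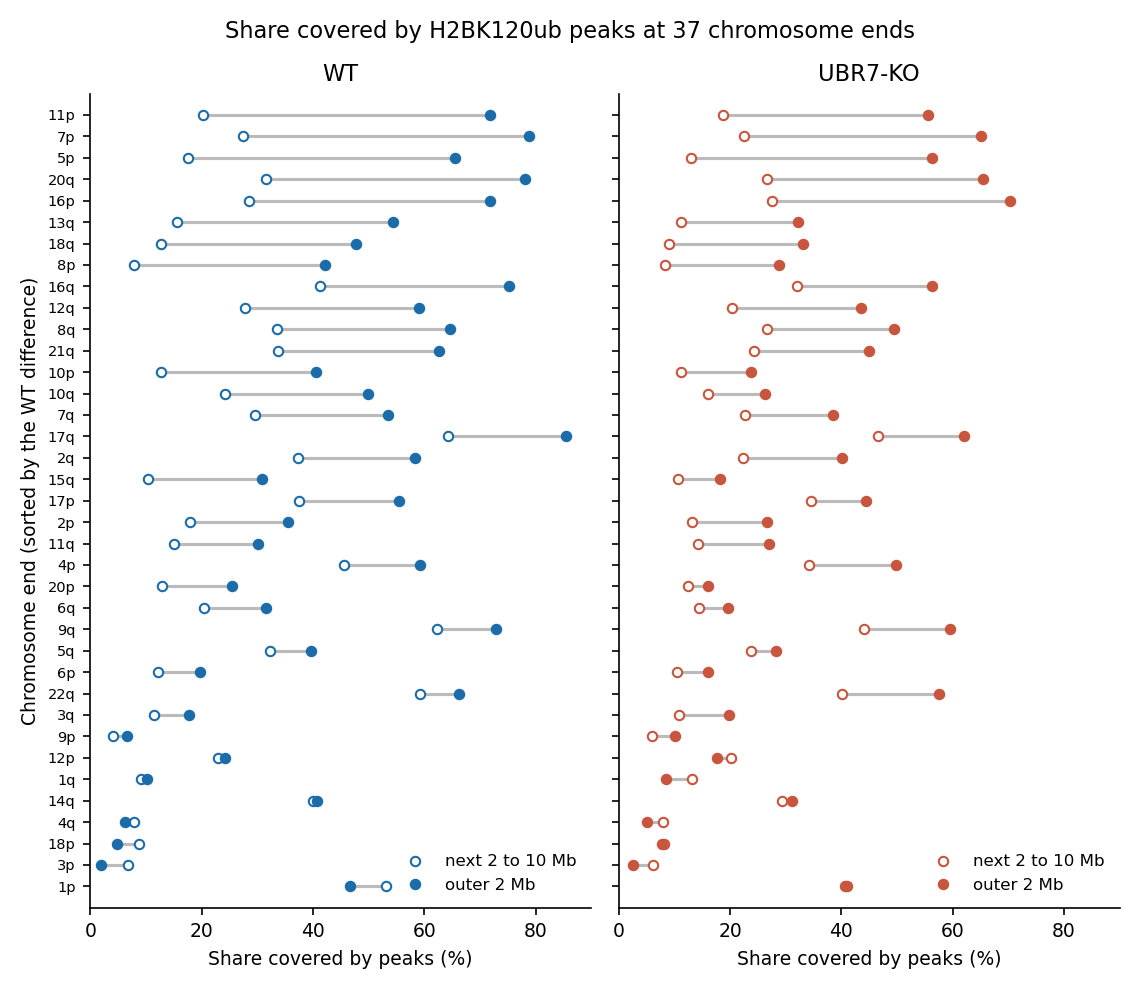
Share of sequence covered by peaks (x axis, %) at each of 37 chromosome ends (y axis, sorted by the difference in WT), in the WT list on the left and the UBR7-KO list on the right. Filled circles stand for the outer 2 Mb, open circles for the next 2 to 10 Mb, and the line joins them; the outer value is the higher at 33 ends in WT and 32 in UBR7-KO.

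Next, peak lengths were examined. WT peaks in the outer 2 Mb had a median length of 3818.5 bp, and the middle 50% of them spanned 1479.5 to 9072 bp. For UBR7-KO peaks the median was 2725.5 bp, and the middle 50% spanned 1124 to 6530.5 bp. In the next 2 to 10 Mb it was 2389 bp and 1820 bp, so that the outer median was 1.60 times as long in WT and 1.498 times in UBR7-KO. Over all peaks of the 21 autosomes the medians were 1570 and 1359 bp. The median was longer in the outer 2 Mb than in the next 2 to 10 Mb at 30 of 37 ends in WT. In UBR7-KO this held at 32 ends. On 17q, the median WT peak was 15990 bp long, the longest of all ends, against 7493.5 bp in UBR7-KO, and on 3p it was 586 bp, the shortest, against 860 bp.

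The zone was also rich in broad peaks. Peaks over 10000 bp made up 22.6% of the WT peaks in the outer 2 Mb (939 peaks) and 13.5% in the next 2 to 10 Mb. In UBR7-KO they made up 15.1% (706 peaks) and 7.82%. With 2.62% of the sequence, the outer 2 Mb held 13.6% of all such WT peaks and 16.9% of all such UBR7-KO peaks on these autosomes. Of the 100 longest peaks of each whole list, 33 in WT and 37 in UBR7-KO lay there. Short peaks under 1000 bp made up 17.7% of WT and 22.5% of UBR7-KO peaks in the zone, against 24.7% and 30.4% further in.

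The longest members show how single WT domains were represented in UBR7-KO. The longest WT peak of the zone, which was also the longest of the whole list, spanned 230695 bp on 17q (79243343 to 79474037). In UBR7-KO, 7 peaks lay over it and together covered 89.97% of its bases, the longest of them with 104145 bp (79294088 to 79398232). The second WT peak spanned 214912 bp on 16q (88796534 to 89011445), and 3 UBR7-KO peaks covered 98.8% of it. The largest of these, 124789 bp long (88796579 to 88921367), was the longest UBR7-KO peak of the zone and started at nearly the same position as the WT peak. The third WT peak spanned 189870 bp on 16q (88448141 to 88638010), where 7 UBR7-KO peaks covered 89.0%. All 3 domains were thus still marked in UBR7-KO over most of their length, in several shorter peaks. The UBR7-KO peak next in length lay on 17q, inside the longest WT peak, and the one after it on 16p (290596 to 377081, 86486 bp), where the order was the reverse: 7 WT peaks covered 73.1% of it.

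Among the 939 WT peaks over 10000 bp in the zone, 74 (7.88%) had no counterpart in UBR7-KO, 341 (36.3%) had 1, and 524 (55.8%) had 2 or more, up to 10. Among such WT peaks in the next 2 to 10 Mb, 12.3% had none, 37.9% had 1 and 49.8% had 2 or more. In the zone, a median of 74.99% of the bases of long WT peaks was covered by UBR7-KO peaks (quartiles 42.2% and 90.7%). In the next 2 to 10 Mb it was 58.8%. In the other direction, 8 of 706 long UBR7-KO peaks of the zone (1.13%) had no WT counterpart, against 3.53% further in. A median of 98.5% of their bases lay within WT peaks, against 91.6% further in. Most of the sequence under long UBR7-KO peaks at the ends was therefore also covered in WT, although the lower quartile was 89.1%.

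The match between the lists was then compared over all peaks. In the outer 2 Mb, 2605 WT peaks shared 1 bp or more with a peak of the UBR7-KO list (62.8%, 95% Wilson interval 61.3 to 64.3), whereas 40.2% of all WT peaks did so. In the next 2 to 10 Mb the share was 48.8%, a difference of 14 percentage points (95% interval 12.3 to 15.7). In UBR7-KO, 3319 peaks of the zone overlapped a WT peak (70.8%, interval 69.5 to 72.1), against 35.2% of the whole list and 49.0% in the next 2 to 10 Mb, a difference of 21.8 points (interval 20.3 to 23.3). The intervals take in counting error alone, and adjacent peaks do not count as independent events. The size of these differences depended on the settings. Against the next 2 to 4 Mb alone they were 7.96 points in WT and 8.48 in UBR7-KO, with an overlap of 50% of both peaks 9.60 and 8.65 points, and with peaks of a fold enrichment of 2.5 or more 2.42 and 18.2 points. The share was higher in the outer 2 Mb at 35 of 37 ends in each library. It ranged from 21.95% on 3p to 90.5% on 7p for WT peaks and from 18.0% on 3p to 94.1% on 20q for UBR7-KO peaks.

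Longer peaks and denser coverage raise the match by themselves, so the comparison was repeated by length. Within each of 4 length classes the share was higher in the outer 2 Mb in both libraries. Among peaks under 1000 bp, 29.5% of WT peaks matched in the outer 2 Mb and 23.6% in the next 2 to 10 Mb, and in UBR7-KO the shares were 41.5% and 25%. Among peaks of 3000 to 10000 bp they were 72.3% and 62.0% in WT, and 86.8% and 72.3% in UBR7-KO. Weighted to equal length classes, the difference between the zones was 7.56 points in WT and 15.8 points in UBR7-KO. The part of denser coverage remained in these values. The bases covered in both lists were 1.78 times what the product of their shares gives in the outer 2 Mb and 2.37 times in the next 2 to 10 Mb, and this factor has a lower ceiling where coverage is high.

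**Figure D3:**
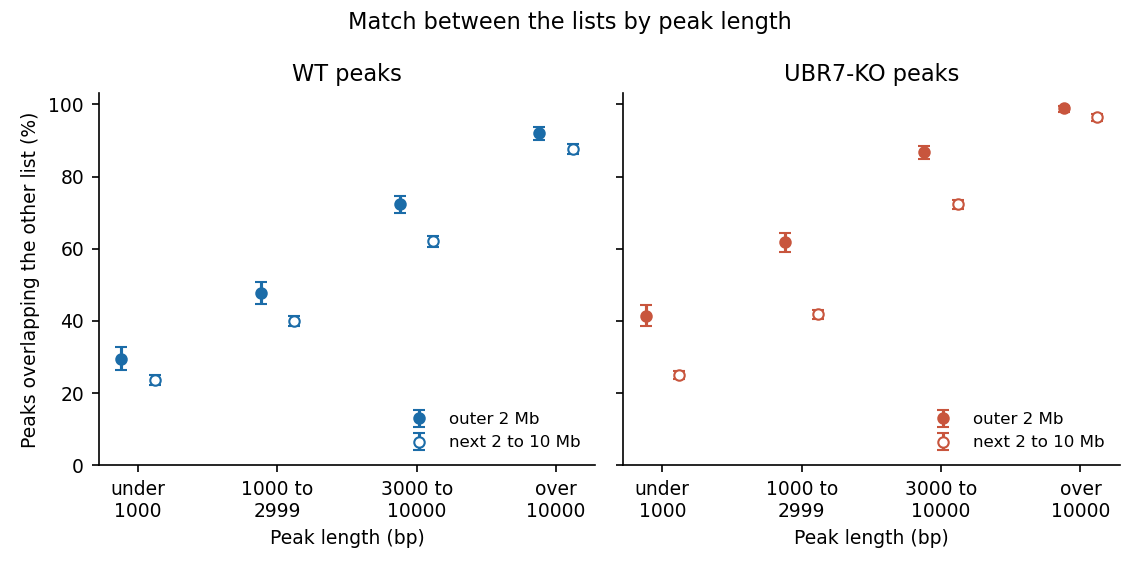
Share of peaks that overlap the other list by at least 1 bp (y axis, %) by peak length (x axis, bp), for WT peaks on the left and UBR7-KO peaks on the right. Filled circles are the outer 2 Mb, open circles the next 2 to 10 Mb, and bars are 95% Wilson intervals of counting error. The outer share is the higher in every class, for example 41.5% against 25% in UBR7-KO peaks under 1000 bp.

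By length, the lists shared 21.1 Mb in the outer 2 Mb, which was 62.5% of the WT length, 81.2% of the UBR7-KO length and 54.6% of the 38.6 Mb covered by either. In the next 2 to 10 Mb the shares were 48.2%, 61.2% and 37.0%. In the 1389 one-to-one pairs of the zone, where neither peak met any further peak, the WT peak was the longer in 64.1% (interval 61.5 to 66.6), against 58.2% (56.7 to 59.6) of 4441 pairs further in. The median WT and UBR7-KO lengths of the paired peaks were 4105 and 2977 bp in the zone, and 3031 and 2531 bp further in. Within pairs, the median ratio of UBR7-KO to WT length was close in both, at 0.843 and 0.859.

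The called peaks of the 2 libraries were next compared in number and covered length at the ends. These values describe what was called in each library at unknown depth, not the amount of the mark. UBR7-KO had more peaks in the zone, 4686 against 4146, a ratio of 1.13, but covered less, 25.96 against 33.7 Mb, a ratio of 0.770. The higher number was not particular to the ends. UBR7-KO had 16667 peaks against 14595 in the next 2 to 10 Mb, and 99744 against 77862 beyond 10 Mb. The ratio of covered length was 0.788 in the next 2 to 10 Mb and 0.949 beyond 10 Mb. UBR7-KO covered less of the outer 2 Mb at 33 of 37 ends and less of the next 2 to 10 Mb at 32, so these counts were close. It had more peaks in the outer 2 Mb at 27 ends. The ratio was lower in the outer 2 Mb than in the next 2 to 10 Mb at 21 of 37 ends with all peaks, at 28 with peaks of a fold enrichment of 2.5 or more, and at 32 with peaks whose pileup was 3 times the background or more.

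The lowest ratios were on both ends of chromosome 10 and on 15q. On 10q, 49.8% of the outer 2 Mb was covered in WT and 26.3% in UBR7-KO, a ratio of 0.527. On 10p the shares were 40.6% and 23.7%, a ratio of 0.585, although WT had more peaks there, 174 against 136. On 15q they were 30.9% and 18.2%, a ratio of 0.588. Among the 36 ends with at least 5% of the outer 2 Mb covered in either list, the highest ratios were 1.60 on 18p (4.81% and 7.69%), 1.55 on 9p (6.56% and 10.2%) and 1.12 on 3q (17.7% and 19.8%). The ratio on 3p, which fell short of that coverage, was 1.38 (1.90% and 2.63%).

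Against a limit of 1.5-fold, 6 of the 36 ends with at least 5% covered in either list were lower in UBR7-KO (16.7%). Over all 900 windows of 2 Mb with that coverage, 12.4% were lower by this limit, so the share at the ends was close to the background. Conversely, 2 ends were higher by at least 1.5-fold (5.56%), against 19.6% of all windows. The ratio also varied with coverage in general. In windows of which 25 to 50% was covered on average over the lists, it was 0.704 at the 14 ends and 0.706 in the 126 other windows. Where 50% or more was covered, it was 0.807 at 13 ends and 0.744 in 14 other windows. In the less covered windows, with only 5 ends in each class, it was lower at the ends, with 0.744 against 0.889 at 10 to 25% and 1.15 against 1.27 under 10%. With all peaks, the ratio of summed covered length at the ends was thus the higher only in the class of 50% or more. Taken as the median over single windows, it was also higher at the ends under 10%, at 1.38 against 1.27. The classes do not match coverage exactly, since WT covered 23.6% of the ends and 16.8% of the other windows in the class of 10 to 25%.

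**Figure D4:**
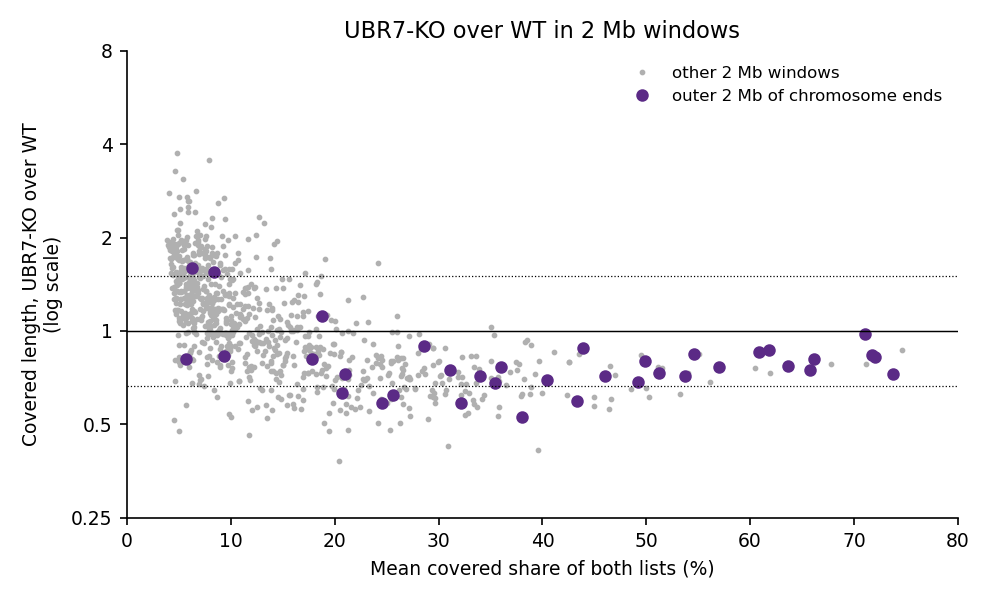
Ratio of covered length, UBR7-KO over WT (y axis, log scale), against the mean covered share of both lists (x axis, %) in 900 windows of 2 Mb with at least 5% covered in either list. Purple points are the outer 2 Mb of 36 ends, grey points the other windows, and dotted lines mark 1.5-fold. The purple points lie among the grey ones, with 6 ends under the lower line and 2 above the upper one.

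Finally, the strength of the peaks was described within each library. The fold enrichment is the pileup of fragments over the background of the same library. Its median among WT peaks was 2.32 in the outer 2 Mb and 2.22 in the next 2 to 10 Mb, and 29.5% and 17.2% of peaks reached 2.5. Among UBR7-KO peaks the medians were 2.17 and 2.15, and 8.62% and 8.68% reached 2.5. Broad WT peaks were the strongest, with a median of 2.51 over 10000 bp in the zone, whereas in UBR7-KO the corresponding median was 2.17. The threshold on fold enrichment is stricter for UBR7-KO, because 1 is added to the pileup and to a background that was lower there (median 1.48 against 2.40 in WT in the zone). The part of this lower background in the difference was not tested.

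The comparison of covered length depended on that threshold. When a pileup of 3 times the background was required, with the background worked out from pileup and fold enrichment, WT covered 19.9 Mb of the outer 2 Mb and UBR7-KO 8.95 Mb, a ratio of 0.450. The ratio was 0.792 in the next 2 to 10 Mb and 1.46 beyond 10 Mb. UBR7-KO then covered less in the outer 2 Mb at 24 of 37 ends, and in the next 2 to 10 Mb at 17. The ratio was lower in the outer 2 Mb than in the next 2 to 10 Mb at 32 ends. The outer 2 Mb held 21.5% of the strong covered length of WT and 9.07% of that of UBR7-KO. Expressed as fold enrichment, this threshold is laxer for UBR7-KO, because of the added 1 and its lower background. It was reached by 44.6% of UBR7-KO and 39.6% of WT peaks in the outer 2 Mb. The shares were 42.9% and 25.2% in the next 2 to 10 Mb, and 44.8% and 24.3% beyond 10 Mb. The part of this in the 3 ratios was not tested. At a fold enrichment of at least 2.5, the ratios were 0.0614, 0.118 and 0.351 from the end inward. Dense windows away from the ends also had low ratios at 3 times the background. Where at least 50% was covered, the ratio was 0.322 at 13 ends and 0.375 in 14 other windows, and where 25 to 50% was covered, it was 0.602 and 0.682. In the sparser classes it was 1.45 and 1.49 at 10 to 25%, and 1.81 and 2.13 under 10%. At this threshold the ratio of summed covered length was therefore lower at the ends in all 4 classes, of which the sparser ones held 5 ends each. With all peaks, both lists also covered more of the ends than of the other windows in every class. In WT the shares were 70.1% and 66.5% at 50% or more, and 44.7% and 38.1% at 25 to 50%. The classes thus did not match coverage exactly, and the part of this in the lower ratios was not tested.

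**Figure D5:**
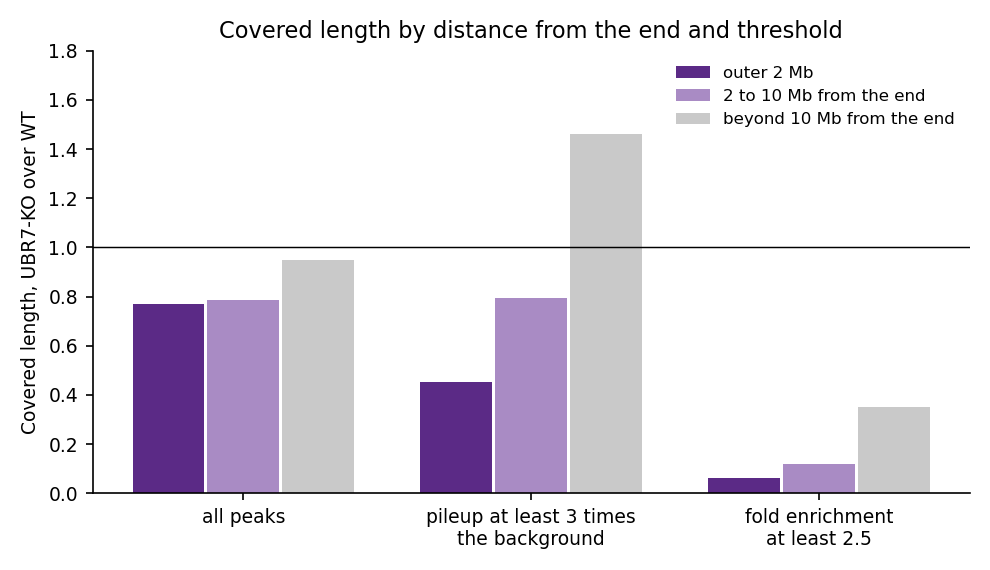
Covered length in UBR7-KO over that in WT (y axis) in the outer 2 Mb, at 2 to 10 Mb and beyond 10 Mb from the chromosome ends, for all peaks, for peaks whose pileup reached 3 times their background, and for those whose fold enrichment reached 2.5. The ratio rises from the end inward in each set, from 0.770 to 0.949 in all peaks and from 0.450 to 1.46 at 3 times the background.

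The strongest single peaks of the zone were mostly short. In WT, the 3 with the highest fold enrichment lay on 5p (1930558 to 1932103, 4.20), 20q (62947038 to 62948427, 4.17) and 14q (106156664 to 106158110, 3.99). Each had 1 counterpart in UBR7-KO, with fold enrichments of 2.47, 3.36 and 2.22 within that list. They ranked 25, 29 and 55 in the whole WT list, so the strongest peaks of the library lay elsewhere. In UBR7-KO, the highest fold enrichment was 3.502 on 1q (247337606 to 247338253), where no WT peak lay within 4563 bp. The second, on 17p (1949176 to 1955503, 3.44), lay wholly within a WT peak of 74609 bp. The third, on 5p (828005 to 828826, 3.40), was 51.7% covered by a WT peak of 425 bp.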

How the data were processed

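ChIP-seq for H2BK120ub gave 1 peak list per genotype. Per the study's methods, the authors mapped reads onto hg19 using BWA aln, whereas the submitters' processing notes name Bowtie 1.1.2. MACS calls were made separately for both libraries at a q-value limit that is not stated. The control of the calls, peak mode and fold filter are not given in the sources used here. The study's supplement names rabbit IgG beside the antibody, but not its use in the calls. It also describes a peak list for each mark, made of recurring peaks. Whether the deposited lists were made in that way is not stated. The deposited pileup is a signal that depends on depth, and the deposited fold enrichment is a ratio of pileup to background, each increased by 1. The lowest fold enrichment was 2 in both lists. The number of reads is unknown.

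The UBR7-KO list held 6 empty lines, which were skipped. Midpoints were set against the hg19 chromosome lengths of GenomeInfoDb 1.38.1 (R 4.3.3). Covered shares count bases clipped to the window, over 37 ends. Short arms of chromosomes 13, 14, 15, 21 and 22 were left out. Peaks were assigned by midpoint, and a match needs 1 bp. Windows of 2 Mb were tiled between the outer windows. Named ends are those with the 5 largest and 3 most negative differences between the zones in each list, and the 3 highest and 3 lowest ratios between the lists among ends with at least 5% covered in either list. Named peaks are the 3 longest and the 3 of highest fold enrichment in each list. Python 3.11.15 was used, along with scipy 1.17.1, pandas 2.3.3 and numpy 2.4.6. Interval code was tested on 10000 simulated peaks, where it returned the built-in share of 40.0%. The region, the windows and the alternatives were chosen with earlier results of these data known. Wilson intervals (95%) and the intervals of their differences cover counting error only.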

Additional observations from a re-analysis of the deposited data

Results flagged for a closer look

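At 3 ends the difference in covered share between the outer 2 Mb and the next 2 to 10 Mb had opposite signs in the 2 libraries, and the difference between the libraries was not tested. On 1p it was -6.50 percentage points in WT and 0.405 in UBR7-KO. On 1q it was 1.08 in WT and -4.64 in UBR7-KO. On 12p it was 1.36 in WT and -2.47 in UBR7-KO.

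Peaks at the ends of the sex chromosomes were not among the regions described above, and entered only the shares and ranks given over the whole lists. The outer 2 Mb of Xq held 49 WT and 56 UBR7-KO peaks, covering 9.35% and 3.53% of the sequence. The outer 2 Mb of Yq held 4 UBR7-KO peaks and 3 WT peaks, too few to compare.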

How the results depend on the processing

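Of 107 values under alternatives, 84 kept their direction and stayed within the limit set for them (1.5 times, or the interval of the difference for matched shares), 19 moved further and 4 reversed. Each chromosome was left out in turn, which moved the ratio of covered length in the outer 2 Mb only between 0.761 and 0.782. The cause of the following changes was not tested, except where fewer or stronger peaks enter by construction.

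A fold enrichment of at least 2.5 moved the outer over inner covered share in WT from 1.76 to 3.53 and the ratio of median lengths from 1.60 to 2.71. It moved the difference in matched share from 14 to 2.42 points in WT and from 21.8 to 18.2 in UBR7-KO. The ratio of covered length fell to 0.0614 in the outer 2 Mb and 0.118 in the next 2 to 10 Mb, and the ratio of peak number reversed from 1.13 to 0.331. A pileup of at least 3 times the background gave 3.36 for the covered share and 2.49 for the median length in WT, and 0.450 for the ratio of covered length. Among the ends covered under 10% that ratio reversed to 1.15 with all peaks. At 3 times the background, an alternative added after seeing the data split the ends by coverage, where it was 1.81 under 10%, 1.45 at 10 to 25% (both reversed) and 0.322 at 50% or more.

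Against the next 2 to 4 Mb alone, the covered share in WT was 1.17 times as high, and the matched shares differed by 7.96 points in WT and 8.48 in UBR7-KO. Requiring 50% of both peaks gave 9.60 and 8.65 points, the midpoint gave 11.7 in WT, equal length classes gave 7.56 and 15.8, and merging within 5000 bp gave 19 in UBR7-KO. No paired analysis was possible because the groups hold a single library apiece, which also means that none could be dropped. The unknown depth limits every comparison of pileup or covered length between the libraries.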

Other observations

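The ends at the start of the chromosomes (p) and those at their end (q) were both covered over a wide range. In WT, the median covered share of the outer 2 Mb was 41.3% over 16 p ends (1.90% to 78.9%) and 53.5% over 21 q ends (6.27% to 85.4%). In UBR7-KO it was 27.6% (2.63% to 70.3%) and 33.2% (5.10% to 65.4%). The 2 groups of ends overlapped nearly entirely.

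The outermost peak lay at a median of 73.8 kb from the end in WT and 67.4 kb in UBR7-KO. It came closest on 17p, at 0.952 and 1.70 kb, and stayed farthest away on 1p, at 541 and 527 kb.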
